A study of Homo sapiens with 29 samples.

Results

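Myosin heavy chain transcripts were followed in LHCN-M2 human myoblasts after knockdown of the zinc finger transcription factor ZNF148. The members were the 8 genes MYH1, MYH2, MYH3, MYH4, MYH6, MYH7, MYH7B and MYH8, chosen by name. Their probes were found through the RefSeq accession that each array spot carries. The 8 genes had 10 probes among the 58201 probes of the array, and were 8 of the 22439 genes that an accession named. All 8 genes passed the filter on dim probes, which asked for a signal well above background on at least 2 arrays, although MYH4 passed through single arrays of 3 different groups.

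A myosin heavy chain is the motor subunit of the thick filament of the sarcomere, and each muscle fibre is typed by the isoform it holds. MYH3 is the embryonic isoform and MYH8 the perinatal one, and both are also made when myoblasts fuse into myotubes in culture. MYH7 is the slow isoform of type I fibres and of the ventricle, MYH6 is the alpha isoform of the heart, and MYH7B is a slow-type isoform whose gene carries a microRNA in an intron. MYH2, MYH1 and MYH4 encode the adult fast isoforms 2A, 2X and 2B, of which 2B is hardly made in human limb muscle.

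LHCN-M2 is a line of human skeletal myoblasts immortalized by telomerase and CDK4, and it comes from 1 selected clone. Every culture received 20 nM of siRNA, either siZNF148 or a nontargeting siRNA called siControl. Growth-media cultures were taken at 24 h while subconfluent and at 48 h and 96 h when confluent. Differentiation media replaced the growth media only after transfection, and the differentiation-media cultures were taken at 48 h and 96 h, so an equal hour in the 2 media is not taken to be an equal time since transfection. Each of the 10 groups had 3 arrays, except siControl at 96 h in growth media, which had 2. The labels call the arrays biological replicates. Bulk RNA was measured, so more cells that make a transcript and more transcript per cell cannot be told apart.

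The knockdown was visible in the target itself. The log2 value of ZNF148 lay between 8.52 and 9.83 on the 14 siControl arrays and between 6.53 and 7.29 on the 15 siZNF148 arrays, without overlap. The share of probes well above background ranged from 41.5% to 56.5% over the arrays. The 24 h arrays were all on 1 slide and the others on 3 further slides. Of the 8 myoblast and muscle markers, which include DES, MYOD1 and ACTA1, all were well above background on every array from 48 h on, and 5 were so on all arrays of each 24 h group. One control array stood apart. On siControl replicate 1 at 48 h in growth media, MYH3 had a log2 value of 17.36 where replicates 2 and 3 had 8.55 and 8.69, while its ZNF148 value of 8.52 was above that of every siZNF148 array. That array widened the spread that the fit shares over all groups, so results that hold it are also given without it, from a fit of the other 28 arrays. It was singled out by values of the members, so leaving it out narrows their spread by choice. Calls gained in the fit of 28 arrays are therefore no independent support. Over all tested probes, its mean r with the other 2 arrays of its group was 0.964.

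Of the 8 genes, 5 had an upstream sequence in the RefSeq table (build GRCh38.p14), and 4 of these lie on chromosome 17. Their 250 bases before the transcript start are shown because the 4 genes share a stretch of sequence, while MYH8 was well above background on every array from 48 h on and MYH4 on 3 of 29 arrays. Capitals mark the longest run that all 4 sequences hold, which is 15 bases long. Each sequence is read 5′ to 3′ on the minus strand, on which all 4 genes lie.
MYH8 (perinatal), chr17:10421951-10422200: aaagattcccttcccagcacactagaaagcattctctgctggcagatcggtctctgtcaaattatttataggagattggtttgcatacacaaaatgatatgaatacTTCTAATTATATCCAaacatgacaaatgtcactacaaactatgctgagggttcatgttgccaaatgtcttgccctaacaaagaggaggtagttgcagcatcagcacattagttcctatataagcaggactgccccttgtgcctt
MYH2 (fast 2A), chr17:10549659-10549908: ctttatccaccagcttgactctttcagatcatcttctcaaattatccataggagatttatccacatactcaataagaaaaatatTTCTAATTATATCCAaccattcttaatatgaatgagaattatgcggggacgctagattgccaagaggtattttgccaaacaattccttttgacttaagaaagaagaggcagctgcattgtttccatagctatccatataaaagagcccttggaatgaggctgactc
MYH1 (fast 2X), chr17:10518543-10518792: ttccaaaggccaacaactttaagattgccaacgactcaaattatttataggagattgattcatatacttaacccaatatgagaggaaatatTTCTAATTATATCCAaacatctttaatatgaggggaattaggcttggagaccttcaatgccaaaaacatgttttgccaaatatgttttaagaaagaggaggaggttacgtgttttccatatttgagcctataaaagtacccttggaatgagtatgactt
MYH4 (fast 2B), chr17:10469560-10469809: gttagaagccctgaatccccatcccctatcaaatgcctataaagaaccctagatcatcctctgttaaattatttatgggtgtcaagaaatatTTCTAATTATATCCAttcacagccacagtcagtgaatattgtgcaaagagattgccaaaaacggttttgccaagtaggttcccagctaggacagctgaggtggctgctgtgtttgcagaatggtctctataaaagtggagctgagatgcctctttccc

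The shared run began 144 bases before the start of MYH8, 158 before that of MYH4, 159 before that of MYH1 and 166 before that of MYH2. On either strand, it was found in 4 of the 35114 upstream sequences of the same length (0.0114%), which are these 4. The run was taken from these 4 sequences, so their holding it was fixed in advance and the share is no test. The E-box, searched as CANNTG on both strands and counted once per position, had 2 matches in MYH8, 1 in MYH2, 2 in MYH4 and 0 in MYH1, and 61.8% of all upstream sequences hold one. A MEF2 site had 1 match each in MYH8 and MYH1, and 2.8% of all upstream sequences hold one. In both genes it overlapped a TATAAA match on the other strand. A TATAAA match began 31 bases before the start of MYH1, MYH2 and MYH4, and 10.7% of all upstream sequences hold that motif. The MCAT element, searched as CATTCC, had 1 match each in MYH1 and MYH2 and 0 in MYH4 and MYH8, beside 11.9% overall. A run of 7 G, searched because ZNF148 is known to bind sites rich in G, was in none of the 4 sequences, beside 4.87% overall. MYH6, the only further member in the table, had neither the shared run nor an E-box. These matches describe letters in a window and are not binding sites.

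**Figure D1:**
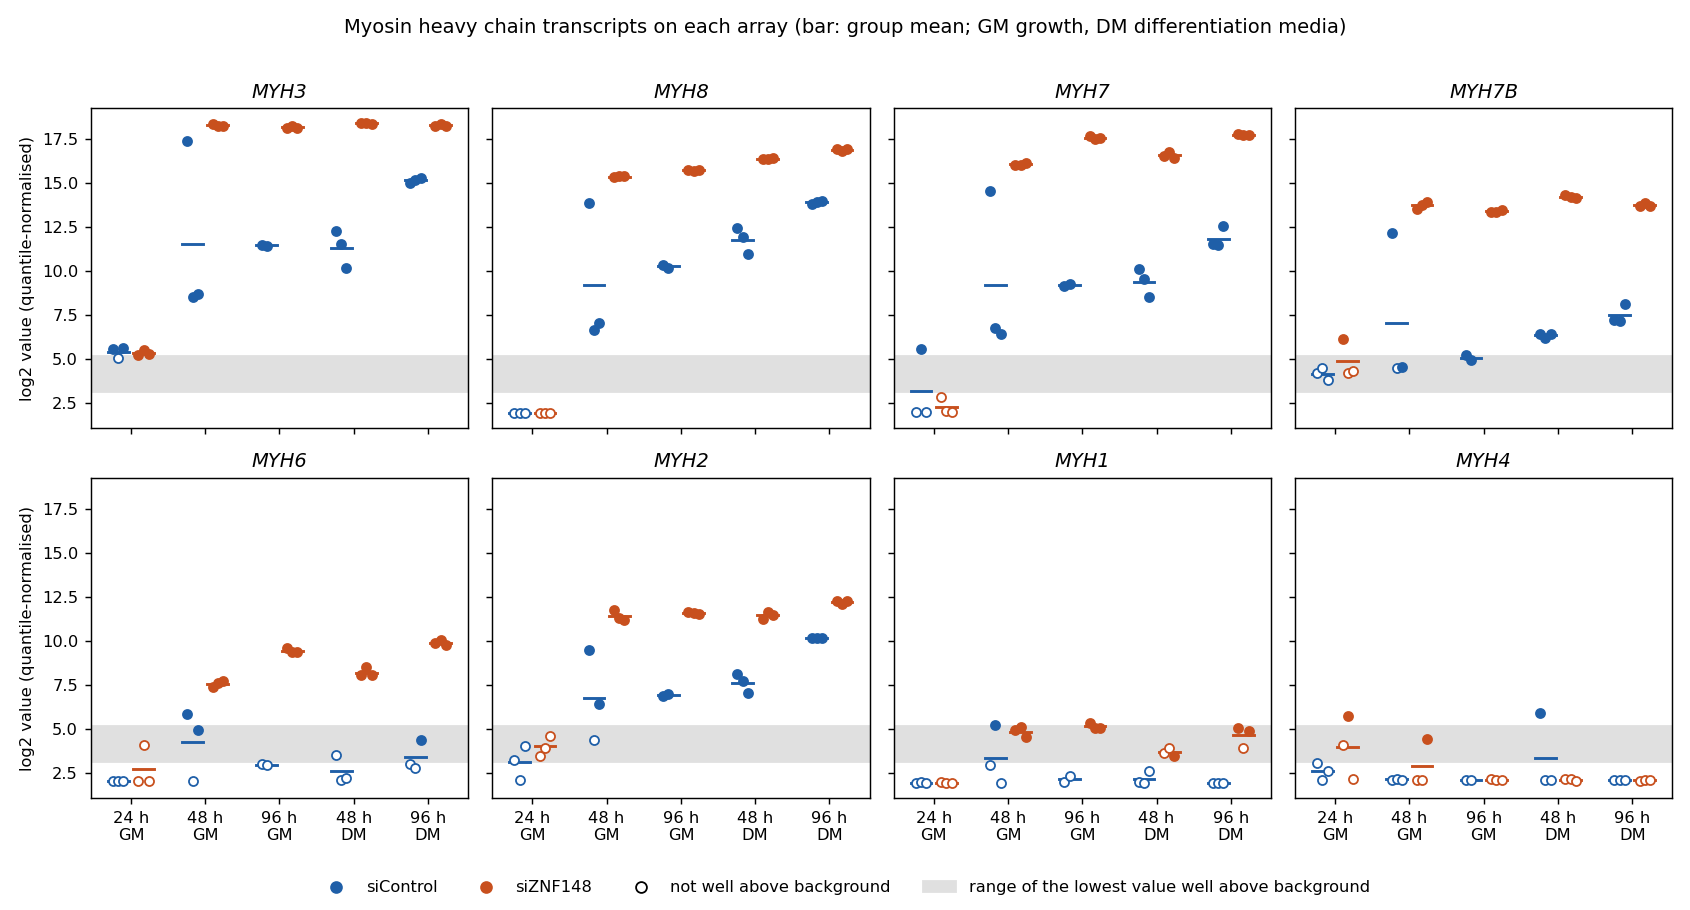
Log2 value of each myosin heavy chain gene on every array (vertical axis) in each medium and at each time (horizontal axis), with siControl in blue, siZNF148 in orange, group means as bars, open points for spots not well above background and, in grey, the range over arrays of the lowest value that was well above background (3.15 to 5.16). The orange points from 48 h on lie above the blue ones for MYH3, MYH8, MYH7, MYH7B, MYH6 and MYH2, and for MYH3, MYH8, MYH7 and MYH7B 1 blue point at 48 h in growth media lies far above the other two of its group.

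At 24 h, none of the 8 genes passed the test of siZNF148 against siControl, and 4 of them (MYH1, MYH2, MYH6 and MYH8) were not well above background on any array of either group. From 48 h on, 7 of the 8 genes rose with siZNF148 in growth media at 48 h and 96 h and in differentiation media at 48 h, and 6 rose in differentiation media at 96 h. One of the genes counted each time, MYH1, was at the edge of detection, with 9 of its 10 detected arrays from siZNF148 groups, and with normexp background correction none of its changes passed 2-fold. MYH4 rose in no comparison and no member fell in any. A gene was called at an adjusted p under 0.05 in the limma fit and a change of more than 2-fold. At 24 h the call went upward for 2.45% and downward for 3.04% of the 18398 genes tested, and 0 members had an unadjusted p under 0.05 or passed the methods' test. In growth media, 11.7% of genes were called upward and 12.2% downward at 48 h, and 12.3% and 12.4% at 96 h. In differentiation media, 15.1% were called upward and 17.3% downward at 48 h, and 10.5% and 12.8% at 96 h. The median log2 difference of the 8 members was 0.35 at 24 h. In growth media it then was 5.40 (48 h) and 5.95 (96 h), and in differentiation media 5.07 (48 h) and 3.03 (96 h), while the median of all genes tested lay between -0.06 and 0.00 in the same comparisons.

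**Figure D2:**
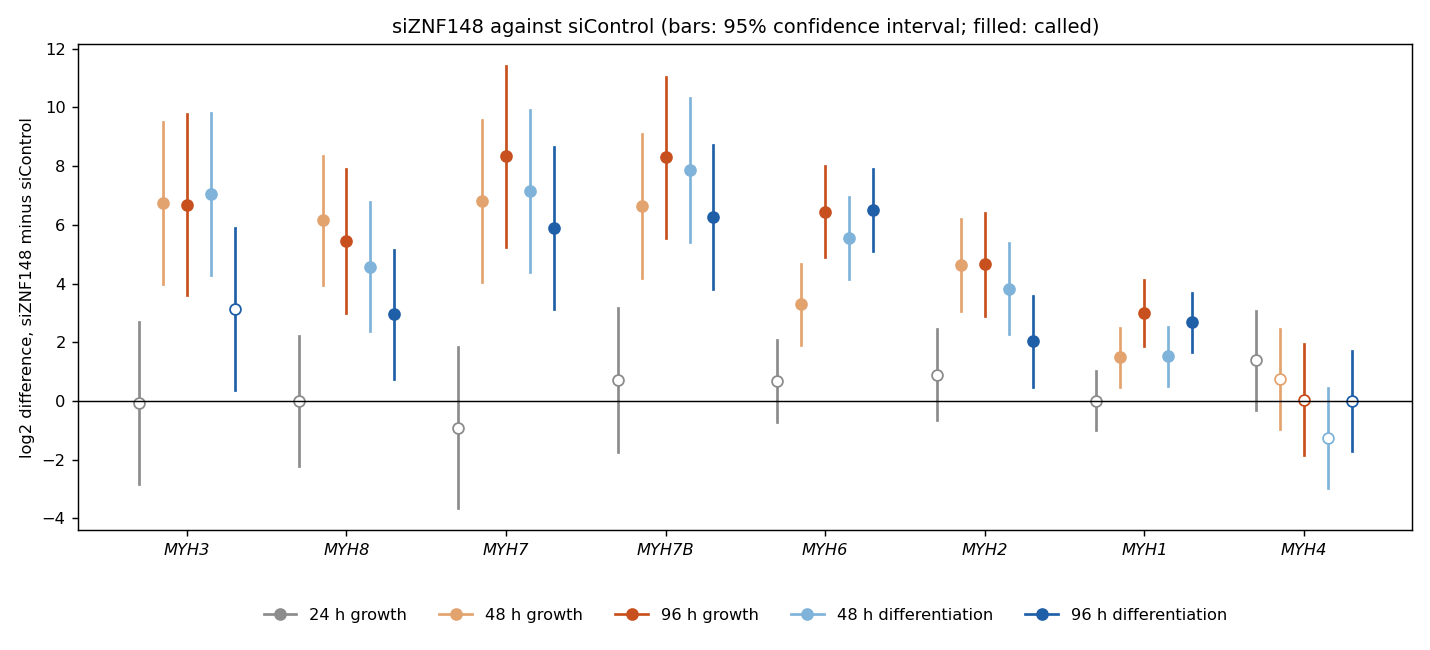
Log2 difference of siZNF148 minus siControl (vertical axis) for each gene, with 1 point for each medium and time, 95% confidence intervals as bars and filled points for called genes. The 24 h points in grey cross 0 for every gene, the points from 48 h on lie between 1.49 and 8.34 for the first 7 genes, and the points of MYH4 lie between -1.27 and 1.39.

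The calls at 48 h in growth media depended on the arrays that entered the fit. In a fit of the 6 arrays of that comparison alone, only MYH2 passed, and by the methods' test 2 genes passed before adjustment (MYH2 and MYH6) and 0 after it. Without the control array that stood apart, 6 genes rose and MYH1 did not (log2 difference 1.29, adjusted p 0.0601). From 48 h on, each group was spread over 2 or 3 slides, except that both siControl arrays of 96 h in growth media were on 1 slide. At 48 h in growth media, on the slide that held that array, the siZNF148 value of MYH3 exceeded the siControl value by 0.87, and on the other 2 slides by 9.70 and 9.67. At 96 h in growth media all 7 called genes kept the call without either control array.

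The developmental isoforms MYH3 and MYH8 went from near or under background to a bright signal. MYH3 had log2 values of 5.61, 5.07 and 5.63 with siControl and 5.25, 5.54 and 5.31 with siZNF148 at 24 h. With siControl, its values were 17.36, 8.55 and 8.69 at 48 h and 11.51 and 11.41 at 96 h in growth media. The groups at 24 h overlapped, and the control arrays of 96 h lay between the 2 low arrays and the 1 high array of 48 h. In differentiation media, the siControl values of MYH3 were 12.25, 11.53 and 10.18 at 48 h and 15.01, 15.19 and 15.28 at 96 h. With siZNF148, the 12 arrays from 48 h on lay between 18.10 and 18.41 whatever the medium, above every siControl array. MYH3 was then among the 33 brightest of the 58201 probes, although no spot of any member was marked as saturated, so there was little room above these values after quantile normalization.

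The difference for MYH3 was 6.74 ± 1.32 (log2, SE, n = 3 and 3, adjusted p 1.99e-04) at 48 h in growth media, which is 107-fold, and 9.66 without the control array that stood apart. It was 6.69 ± 1.48 (n = 3 and 2, adjusted p 7.33e-04) at 96 h in growth media and 7.06 ± 1.32 (n = 3 and 3, adjusted p 9.24e-05) at 48 h in differentiation media. At 96 h in differentiation media it was 3.12 with a 95% confidence interval from 0.36 to 5.88 and did not pass (adjusted p 0.058). The 3 arrays of each group did not overlap. In that comparison, 28.4% of all genes tested had every siZNF148 array above every siControl array. In the fit of 28 arrays the same difference of 3.12 had an SE of 0.298 and passed (adjusted p 1.96e-08), as it did in the fit of its own 6 arrays (adjusted p 3.27e-05).

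MYH8 was not well above background on any of the 6 arrays of 24 h, where its log2 values lay between 1.94 and 1.96. With siControl it was at 13.88, 6.67 and 7.06 at 48 h and at 10.36 and 10.17 at 96 h in growth media. In differentiation media, its siControl values were 12.47, 11.92 and 10.97 at 48 h and 13.83, 13.95 and 13.98 at 96 h. This perinatal gene was thus above background on every siControl array from 48 h on, and apart from replicate 1 at 48 h in growth media it was brightest at 96 h in differentiation media. With siZNF148 it was at 15.35, 15.37 and 15.37 at 48 h and 15.72, 15.70 and 15.71 at 96 h in growth media. In differentiation media, the siZNF148 values of MYH8 were 16.34, 16.36 and 16.39 at 48 h and 16.90, 16.80 and 16.90 at 96 h. These 4 siZNF148 groups did not overlap with one another or with any siControl array. The siZNF148 difference was 6.16 ± 1.06 (log2, SE, n = 3 and 3) at 48 h (8.50 without the control array that stood apart) and 5.44 ± 1.18 (n = 3 and 2) at 96 h in growth media, then 4.57 ± 1.06 (n = 3 and 3) at 48 h and 2.95 ± 1.06 (n = 3 and 3, adjusted p 0.0255) at 96 h in differentiation media. The last of these kept its size but not its call when any 1 of its 6 arrays was left out (2.90 to 2.98, adjusted p 0.0524 to 0.058), and passed in the fit of 28 arrays (adjusted p 2.62e-10).

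The slow isoform MYH7 was well above background on 1 of 6 arrays at 24 h, a siControl array at 5.60, and the others lay between 2.03 and 2.86. With siControl its log2 values were 14.53, 6.75 and 6.41 at 48 h and 9.16 and 9.28 at 96 h in growth media. In differentiation media they were 10.11, 9.57 and 8.55 at 48 h and 11.53, 11.46 and 12.56 at 96 h. Again the highest of these values was that of replicate 1 at 48 h in growth media, and without it the 96 h arrays in differentiation media were the brightest controls. With siZNF148, MYH7 was at 16.00, 16.02 and 16.15 at 48 h and 17.66, 17.49 and 17.53 at 96 h in growth media. In differentiation media its siZNF148 values were 16.54, 16.74 and 16.43 at 48 h and 17.77, 17.74 and 17.71 at 96 h. All 12 lay above all siControl arrays. The difference was 8.34 ± 1.48 (log2, SE, n = 3 and 2, adjusted p 7.12e-05) at 96 h in growth media, a 323-fold higher signal, and 5.89 ± 1.32 (n = 3 and 3, adjusted p 7.79e-04), or 59.2-fold, at 96 h in differentiation media. At 48 h it was 6.83 in growth media (9.47 without the control array that stood apart) and 7.16 in differentiation media. The second MYH7 probe gave differences of 6.72 and 8.43 in growth media and 7.34 and 6.45 in differentiation media, at 48 h and 96 h, and passed each time.

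MYH7B, the slow-type isoform, was well above background on 1 of 6 arrays at 24 h, a siZNF148 array at 6.13. It was at 12.17, 4.48 and 4.58 at 48 h and at 5.25 and 4.94 at 96 h with siControl in growth media. With siControl in differentiation media it was at 6.43, 6.20 and 6.43 at 48 h and at 7.22, 7.20 and 8.11 at 96 h. Apart from replicate 1 at 48 h in growth media, its control values from 48 h on thus stayed between 4.48 and 8.11. With siZNF148 it was at 13.53, 13.73 and 13.91 at 48 h and 13.38, 13.34 and 13.47 at 96 h in growth media. In differentiation media, siZNF148 gave 14.33, 14.21 and 14.13 at 48 h and 13.72, 13.87 and 13.72 at 96 h. In both media the 48 h arrays lay above the 96 h arrays without overlap, by 0.32 and 0.45, and these differences did not pass the test. The siZNF148 difference was 8.31 ± 1.32 (log2, SE, n = 3 and 2, adjusted p 1.90e-05) at 96 h in growth media and 6.26 ± 1.18 (n = 3 and 3, adjusted p 1.27e-04) at 96 h in differentiation media. At 48 h it was 6.65 in growth media, or 9.20 without the control array that stood apart, and 7.87 in differentiation media.

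MYH6, the alpha isoform of the heart, stayed near background with siControl. Its log2 values were 5.84, 2.06 and 4.98 at 48 h and 3.03 and 2.97 at 96 h in growth media, of which only 5.84 and 4.98 were well above background. In differentiation media they were 3.56, 2.15 and 2.23 at 48 h and 3.04, 2.83 and 4.38 at 96 h, of which only 4.38 was well above background. With siZNF148, all 12 arrays from 48 h on were well above background. The siZNF148 values of MYH6 were 7.41, 7.60 and 7.73 at 48 h and 9.61, 9.37 and 9.37 at 96 h in growth media. In differentiation media they were 8.06, 8.52 and 8.05 at 48 h and 9.90, 10.07 and 9.75 at 96 h. Where no control array was well above background, the difference is a bound, set against each array's lowest value well above background. MYH6 was at least 40.5-fold higher with siZNF148 at 96 h in growth media (means 9.45 and 3.00, adjusted p 3.24e-07) and at least 19-fold higher at 48 h in differentiation media (means 8.21 and 2.65, adjusted p 2.74e-07). With normexp background correction the bounds were 11.2-fold and 5.31-fold. At 48 h in growth media the difference was 3.29 ± 0.669 (log2, SE, n = 3 and 3, adjusted p 2.92e-04), or 4.06 without the control array that stood apart, and at 96 h in differentiation media it was 6.49 ± 0.669 (n = 3 and 3, adjusted p 4.60e-08). Both rest partly on control arrays not well above background. Over the other settings they ranged from 1.56 to 4.06 and from 3.73 to 6.97. The second MYH6 probe gave bounds of at least 28.6-fold, 20.6-fold and 42.7-fold at 96 h in growth media and at 48 h and 96 h in differentiation media. In those 3 siZNF148 groups the related gene MYH7 was far brighter, with means of 17.56, 16.57 and 17.74 beside 9.45, 8.21 and 9.91 for MYH6. Whether MYH6 probes took up signal of MYH7 was not tested.

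Since MYH6 and MYH7 are also heart isoforms, the cardiomyocyte markers are given beside them. Of 7 markers, 6 were tested. NPPA, the atrial natriuretic peptide, and TNNI3, the cardiac troponin I, rose in each of the 4 comparisons from 48 h on. The other tested markers, NPPB among them, were called in neither direction in any of these comparisons. At 96 h in growth media, where no siControl array had NPPA well above background, NPPA was at least 41.2-fold higher (means 9.47 and 1.95, adjusted p 4.64e-06), and TNNI3 differed by 3.52 (log2, adjusted p 6.75e-05). MYBPC3, the cardiac myosin-binding protein C, did not pass (log2 difference 0.12, adjusted p 0.814), nor did the atrial light chain MYL7 (0.99, adjusted p 0.0492 with a change under 2-fold). RYR2, the cardiac calcium release channel, was not tested, and it was not well above background on any array of 9 of the 10 groups. The summed level of the list at 96 h in growth media was 15.93 to 15.94 with siControl and 15.97 to 16.08 with siZNF148 (log2 of the sum). With siControl at 24 h the sum was already 15.80 to 15.95, with 1 of the 7 markers well above background on all arrays. The sum can therefore miss changes of dim markers. At 96 h in growth media, 2 of the 7 markers were well above background on all siControl arrays and 6 on all siZNF148 arrays. The part of these markers in the result was not tested.

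MYH2, the fast isoform 2A, was not well above background on any 24 h array. With siControl its log2 values were 9.52, 4.37 and 6.44 at 48 h and 6.87 and 6.99 at 96 h in growth media. In differentiation media they were 8.11, 7.76 and 7.05 at 48 h and 10.20, 10.19 and 10.16 at 96 h. All siControl arrays at 96 h in differentiation media were thus above the siControl arrays of every other group. With siZNF148, MYH2 was at 11.76, 11.29 and 11.19 at 48 h and 11.64, 11.58 and 11.53 at 96 h in growth media. In differentiation media the siZNF148 values were 11.26, 11.66 and 11.47 at 48 h and 12.30, 12.09 and 12.27 at 96 h. All arrays of 96 h in differentiation media lay above those of the other 3 groups, which overlapped. The difference was 4.64 ± 0.746 (log2, SE, n = 3 and 3, adjusted p 2.02e-05) at 48 h and 4.65 ± 0.834 (n = 3 and 2, adjusted p 8.10e-05) at 96 h in growth media, and the former was 6.01 without the control array that stood apart. In differentiation media it was 3.83 ± 0.746 (n = 3 and 3, adjusted p 1.43e-04) at 48 h and 2.04 ± 0.746 (n = 3 and 3, adjusted p 0.0285), or 4.1-fold, at 96 h. The last call was lost when any 1 of its 6 arrays was left out (1.99 to 2.10, adjusted p 0.0524 to 0.0621) and held in the fit of 28 arrays (adjusted p 6.11e-04).

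MYH1, the fast isoform 2X, was seen only at the edge of detection. It was well above background on 10 of 29 arrays, of which 9 were siZNF148 arrays from 48 h on. In growth media its siZNF148 values were 4.95, 5.12 and 4.54 at 48 h and 5.35, 5.06 and 5.06 at 96 h, all well above background. In differentiation media they were 3.66, 3.94 and 3.50 at 48 h and 5.09, 3.94 and 4.92 at 96 h, of which 1 and 2 were well above background. The only siControl array on which MYH1 was well above background was replicate 2 at 48 h in growth media, at 5.22, which was above all 3 siZNF148 arrays of that comparison. Without a detected control, MYH1 was at least 2.07-fold higher with siZNF148 at 96 h in growth media (means 5.16 and 2.17, adjusted p 8.73e-05) and at least 1.45-fold higher at 96 h in differentiation media (means 4.65 and 1.97, adjusted p 7.82e-05). At 48 h in differentiation media the called difference of 1.52 gave no bound above 1, and with values raised to the lowest detected value it was -0.01. At 48 h in growth media the difference of 1.49 (adjusted p 0.0143) fell to 0.48 (adjusted p 0.286) in that setting, and at 96 h in differentiation media the call was lost there too (0.77, adjusted p 0.0651). With normexp background correction the MYH1 differences were 0.31 and 0.73 in growth media and 0.24 and 0.53 in differentiation media, at 48 h and 96 h, all under 2-fold. The call at 48 h in growth media was also lost without siControl replicate 1 (1.29, adjusted p 0.0601), siControl replicate 3 (0.78, adjusted p 0.154) or siZNF148 replicate 2 (1.36, adjusted p 0.0513).

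MYH4, the fast isoform 2B, was well above background on 3 of 29 arrays. These were siZNF148 replicate 2 at 24 h in growth media (5.76), siZNF148 replicate 3 at 48 h in growth media (4.44) and siControl replicate 1 at 48 h in differentiation media (5.92). The other arrays of those groups lay between 2.11 and 4.12, and no group had more than 1 detected array. The siZNF148 difference lay between -1.27 and 1.39 over the 5 comparisons and did not pass (adjusted p 0.214 to 0.997). At 24 h it passed only without siZNF148 replicate 3 (2.31, adjusted p 0.0462) or with array weights (1.73, adjusted p 0.0327). At 96 h in growth media the siZNF148 arrays (2.12 to 2.19) lay above the siControl arrays (2.10 and 2.11), all not well above background. With MYH4 left in, all 8 genes had siZNF148 arrays above all siControl arrays in that comparison, as had 35.7% of all genes tested.

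The order of the group means was alike for the genes that were bright. For MYH3, MYH8, MYH7, MYH7B and MYH2, the 4 siZNF148 groups from 48 h on came first, siControl at 96 h in differentiation media came next and the 24 h groups came last. For MYH3 the first 4 groups overlapped neighbour by neighbour, with gaps of 0.00 to 0.12. For MYH8 the first 7 groups of the order did not overlap neighbour by neighbour, and the order was siZNF148 at 96 h and 48 h in differentiation media, siZNF148 at 96 h and 48 h in growth media, then siControl at 96 h and 48 h in differentiation media and at 96 h in growth media. For MYH7 the order among siZNF148 groups followed time first, with both 96 h groups (17.74 and 17.56) above both 48 h groups (16.57 and 16.06). MYH6 had the same order among siZNF148 groups (9.91, 9.45, 8.21 and 7.58). For MYH7B, 48 h in differentiation media came first (14.22). In MYH1 and MYH6, siControl at 96 h in differentiation media ranked below siControl at 48 h in growth media, and those groups overlapped.

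With siControl, the perinatal MYH8 and the fast 2A gene MYH2 rose in differentiation media at 96 h, and no slow isoform passed in the fit of 29 arrays. At 96 h, differentiation minus growth media was 3.26 ± 0.834 for MYH2 (log2, SE, n = 3 and 2, adjusted p 0.00385) and 3.66 ± 1.18 for MYH8 (n = 3 and 2, adjusted p 0.0198), and these 2 of the 8 genes rose, beside 6.81% of all genes called upward and 8.26% downward. The call of MYH8 was lost without either siControl array of 96 h in growth media (3.75 and 3.56, adjusted p 0.0818 and 0.0953). Without the control array that stood apart, which is not in this comparison but sets the shared spread, 5 genes rose, namely MYH2, MYH3, MYH7, MYH7B and MYH8, by 2.42 to 3.70. At 48 h, 0 of the 8 genes rose in the fit of 29 arrays (3 at an unadjusted p under 0.05 in either direction, 0 by the methods' test), beside 7.73% of all genes called upward and 8.19% downward. Without that array, MYH8 (4.92), MYH7 (2.83), MYH3 (2.70), MYH2 (2.23) and MYH7B (1.82) rose, and MYH1 fell by 1.40 with its differentiation-media arrays all under background. The difference for MYH3 was -0.21 and that for MYH7B -0.73 with the array in, so their direction turned.

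From 48 h to 96 h in differentiation media with siControl, MYH3 rose by 3.84 ± 1.32 (log2, SE, n = 3 and 3, adjusted p 0.03) and MYH2 by 2.55 ± 0.746 (n = 3 and 3, adjusted p 0.011), which are 2 of the 8 genes beside 5.76% of all genes called upward and 4.18% downward. The call of MYH3 was lost when any 1 of its siControl arrays of either time was left out, apart from 48 h replicate 1 (3.27 to 3.95, adjusted p 0.0584 to 0.119), and that of MYH2 without 48 h replicate 3 (2.25, adjusted p 0.0535). In the fit of 28 arrays, MYH7 (2.44), MYH8 (2.13) and MYH7B (1.16) rose as well. MYH6 differed by 0.77 and did not pass in either fit.

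**Figure D3:**
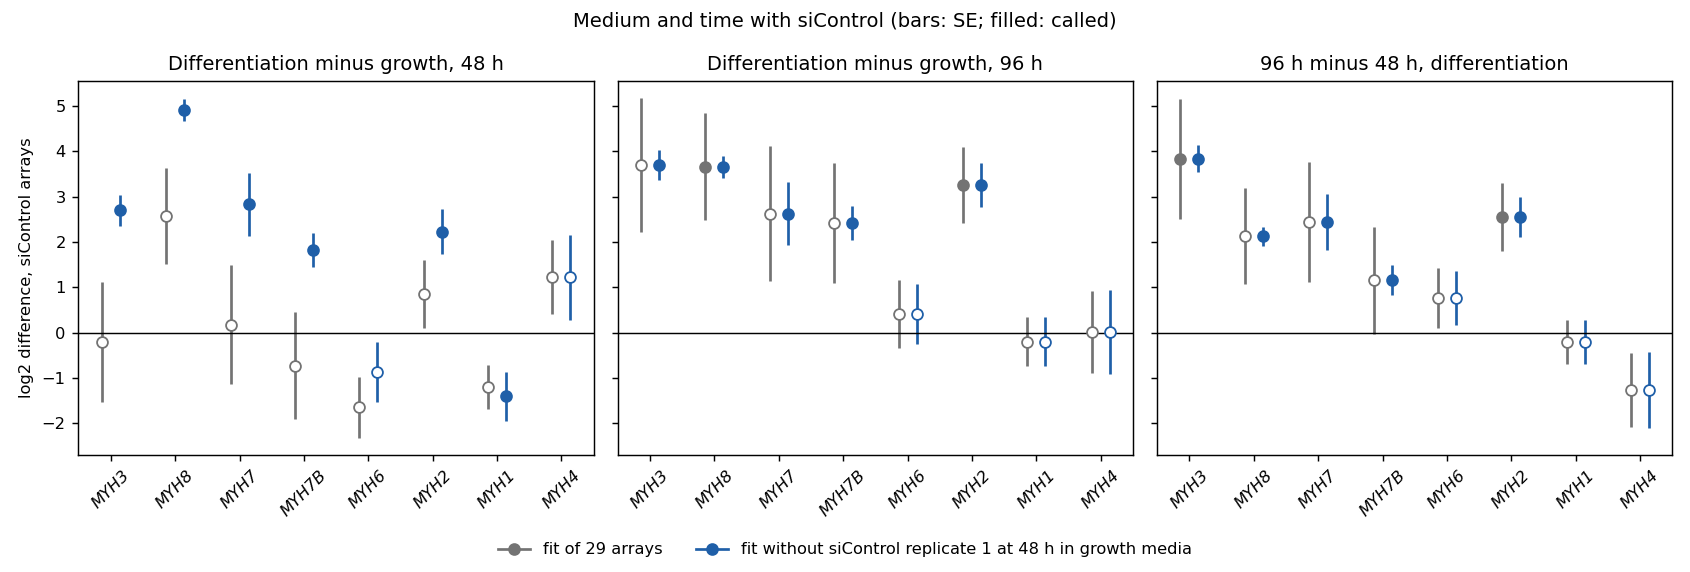
Log2 difference for each gene (vertical axis, SE as bars) between media and between times with siControl, in the fit of 29 arrays in grey and in the fit of 28 arrays in blue, with filled points for called genes. In the 48 h panel the blue points of MYH3, MYH7 and MYH7B lie above 1.8 where the grey points lie between -0.73 and 0.18, and in the other panels the points coincide while the blue bars are shorter for all genes but MYH1 and MYH4.

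With siZNF148, no member passed the test between media. At 48 h, differentiation minus growth media lay between -1.17 (MYH1) and 1.00 (MYH8), and at 96 h between -0.51 (MYH1) and 1.16 (MYH8). The count in the fit of 29 arrays was 0 at both times, beside 1.11% and 1.45% of all genes called upward and 2.85% and 4.98% downward, with 1 and 0 members at an unadjusted p under 0.05 and 1 and 1 by the methods' test. MYH8 at 96 h passed without the control array that stood apart (adjusted p 3.12e-04). Between 48 h and 96 h with siZNF148, MYH6 differed by 1.87 ± 0.669 in growth media (log2, SE, n = 3 and 3, adjusted p 0.051) and by 1.69 ± 0.669 in differentiation media (n = 3 and 3, adjusted p 0.0653), with no overlap of arrays. Both differences of MYH6 passed in the fit of 28 arrays (adjusted p 0.0239 and 0.0339). MYH7 differed by 1.51 in growth media and 1.17 in differentiation media, also with no overlap, and passed only in the fits of those arrays alone and by the methods' test. The share of all genes without overlap was not counted between times. In these 2 time comparisons, 0 members passed, beside 4.15% and 4.35% of all genes called upward and 1.8% and 3.7% downward, and 1 member, MYH6, had an unadjusted p under 0.05 in each, against 2 that passed by the methods' test.

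The siZNF148 effects of different conditions were then compared directly. Compared with 24 h, the effect in growth media was larger at 48 h for 6 genes, all but MYH1 and MYH4, beside 10.2% of all genes called upward and 10.4% downward. It was larger at 96 h for 7 genes, all but MYH4, beside 11.6% upward and 11.2% downward. Between media, 0 members passed at 48 h or at 96 h (1 each at an unadjusted p under 0.05), beside 8.08% and 5.5% of all genes called upward and 9.03% and 6.94% downward. The difference between media at 96 h was -3.57 for MYH3, -2.62 for MYH2, -2.50 for MYH8, -2.45 for MYH7 and -2.04 for MYH7B, but 0.05 for MYH6 and -0.31 for MYH1. Differentiation minus growth media at 96 h with siControl was 3.70 (MYH3), 3.26 (MYH2), 3.66 (MYH8), 2.63 (MYH7) and 2.42 (MYH7B). With siZNF148 it was 0.12, 0.64, 1.16, 0.18 and 0.37 in the same order, and MYH3 had little room above its siZNF148 values. In the fit of 28 arrays, the smaller effect in differentiation media passed for MYH3 (adjusted p 3.45e-06), MYH8 (4.25e-06), MYH7B (0.00415) and MYH2 (0.00515) at 96 h, and MYH7 (0.0581), MYH6 (0.983) and MYH1 (0.821) did not pass. At 48 h in that fit it passed for MYH8 (-3.92), MYH3 (-2.59) and MYH2 (-2.18).

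Transcripts of the proteins that surround myosin in the sarcomere were measured on the same arrays. Of 9 thick filament partners, such as titin (TTN) and the M-band proteins MYOM1 to MYOM3, 8 rose in 3 comparisons (48 h and 96 h in growth media, 48 h in differentiation media) and 6 rose at 96 h in differentiation media, and MYBPC3 did not pass in any. Of 7 sarcomeric myosin light chains, 6, 6, 6 and 5 rose in the same order. MYL2, the slow and ventricular regulatory chain, differed by 6.52 (log2, adjusted p 3.49e-08) at 96 h in growth media, and there MYL3, the essential chain of the same fibres, was at least 60.7-fold higher (means 10.03 and 2.24, adjusted p 1.91e-05). MYL7 did not pass. The 10 fast fibre partners, such as troponins TNNI2 and TNNT3 and parvalbumin (PVALB), and the 10 slow fibre partners, such as TNNI1, TNNT1 and the calcium pump ATP2A2, all rose in the first 3 of these comparisons, and 8 of each rose at 96 h in differentiation media. These lists share genes with each other, such as MYL1 and MYBPC1. The median difference was 5.52 for the fast and 5.75 for the slow partners at 96 h in growth media, and 3.29 and 2.62 at 96 h in differentiation media. At 24 h, 0 genes of the fast, slow and thick filament lists were called in limma, and MYL7 fell by 1.15 (adjusted p 0.0208). MYL7 was not well above background on any siZNF148 array of 24 h, so that value rests partly on dim signals.

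**Figure D4:**
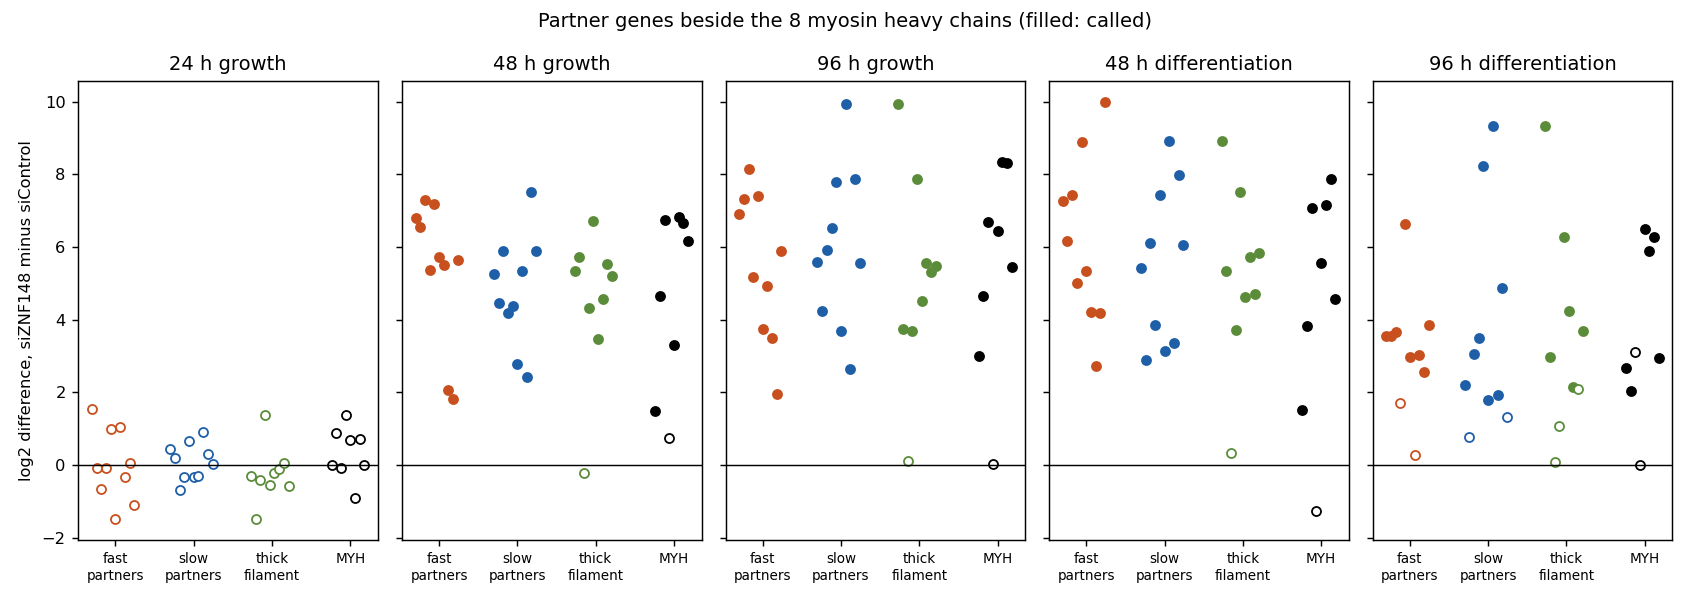
Log2 difference of siZNF148 minus siControl (vertical axis) for each fast fibre partner, slow fibre partner, thick filament partner and myosin heavy chain, in 1 panel for each medium and time, with filled points for called genes. All points are open at 24 h, and all fast and slow partners are filled in the next 3 panels.

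Of 8 genes for folding and regulation of myosin, 4, 4, 5 and 3 rose in those 4 comparisons. The myosin chaperone UNC45B and the methyltransferase SMYD1, which act in thick filament assembly, differed by 4.82 and 4.23 (log2, adjusted p 0.00273 and 0.00171) at 96 h in growth media and did not pass at 96 h in differentiation media (1.23 and 1.34). TRIM63, the ubiquitin ligase MuRF1 that marks myosin for breakdown, differed by 6.04 (adjusted p 2.87e-05) at 96 h in growth media. UNC45A, the general form of the chaperone, fell in all 4 comparisons. Among the transcription factors and cofactors of muscle, 3 of 15 rose at 24 h, namely MYOD1 by 1.13, TEAD4 by 1.24 and PROX1 by 1.04, when none of the 8 myosin genes passed. MEF2C was tested and was not called at 24 h. At 96 h in growth media 7 of the 15 rose, among them MYOG by 4.39 and MEF2C by 4.68 (adjusted p 1.52e-05 and 1.96e-05), and MYF5 fell. At 96 h in differentiation media 4 of the 15 rose.

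Of the 7 other myosin heavy chains on the array, 6 were tested, and at 96 h in growth media 1 of them rose and 2 fell. MYH9 and MYH10, the nonmuscle isoforms 2A and 2B, and MYH15 differed by -0.15, -2.09 and -2.30 (log2, adjusted p 0.288, 6.01e-08 and 6.23e-05) at 96 h in growth media. At 48 h in differentiation media all 3 fell (MYH9 by 1.08, MYH10 by 1.17 and MYH15 by 2.23). MYH13 and MYH14 did not pass in any of the 5 comparisons. MYH11, the smooth muscle isoform, rose in the 4 comparisons from 48 h on, at least 7.62-fold at 96 h in growth media, where no siControl array had it well above background (means 7.04 and 2.52, adjusted p 1.26e-04), and by 6.25 (adjusted p 4.46e-07) at 96 h in differentiation media. Of the 4 smooth muscle markers tested, which include MYH11, 3 rose and 1 (ACTG2) fell at 96 h in growth media, and 4 rose at 96 h in differentiation media. Their summed level (log2 of the sum) was higher with siZNF148 in differentiation media and lower in growth media. In differentiation media it was 7.99 to 8.28 with siControl and 10.81 to 10.95 with siZNF148 at 48 h. At 96 h there it was 6.88 to 8.01 with siControl and 12.41 to 12.65 with siZNF148. In growth media it was 12.59 to 13.11 with siControl and 8.90 to 9.01 with siZNF148 at 48 h. At 96 h in growth media the sums were 13.21 to 13.23 and 11.89 to 12.19. The part of the smooth muscle markers in the myosin results was not tested. Of the 3 endothelium, 3 leukocyte and 3 neuron markers and the 1 tested adipocyte marker, 1 rose from 48 h on, VWF at 96 h in differentiation media, and PECAM1, CD14 and SNAP25 fell in some comparisons.

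Over the 10 group means, each member was compared with all tested genes outside the members, and the 3 with the log2 profile most like it are named. These correlations describe profiles over 10 means that share arrays and normalization. They were highest for MYH3 with CACNG1, a subunit of the skeletal muscle calcium channel (r = 0.9988), SMPX (0.9977) and TNNT3 (0.9972). MYH8 was closest to the light chain MYL11 (0.9935), DES (0.9930) and ACTA1 (0.9923). MYH7 was closest to ADIPOQ-AS1 (0.9966), OPLAH (0.9942) and CACNG1 (0.9932), and MYH7B to IL2RG (0.9959), PHOSPHO1 (0.9955) and LANCL1-AS1 (0.9952). MYH2 was closest to HJV (0.9964), the hemojuvelin gene, HES6 (0.9956) and TNNT3 (0.9952), and MYH6 to ATP1B4 (0.9941), LRRN1 (0.9929) and CAPN6 (0.9921). The dim genes were less closely matched, MYH1 by STMN2 (0.9743), TTC39A (0.9595) and PITPNM3 (0.9566), and MYH4 by KRTAP5-8 (0.9594), VPS26B (0.9497) and CTPS2 (0.9433). Among the members themselves, MYH3 had an r of 0.99 with MYH2 and with MYH7 and of 0.98 with MYH8, while MYH6 was closest to MYH7B (0.96) and MYH1 (0.94).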

How the data were processed

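The members and gene lists were chosen with earlier results of these data known. RNA of 29 cultures was hybridized to one-colour Agilent arrays. Per the file headers, signals were extracted with Agilent Feature Extraction 10.7.3.1. The authors deposited linear intensities with a mark for spots well above background, and a matrix of log2 values of background-subtracted signals, quantile-normalized over all arrays, which is used here. Each of its 29 columns matched its own array best (r of at least 0.9952).

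Groups were taken from the sample labels. Probes were named through RefSeq accessions (31104 of 58201 probes). A signal well above background on 2 or more arrays was asked of a probe, and the 38714 such probes were fitted with limma 3.58.1 (R 4.3.3) in 1 model of 10 group means, two-sided, with Benjamini-Hochberg adjustment over all probes of a comparison. Where a gene had several tested probes, the one of highest mean log2 value stands for it. The text names all members, the lists and the 3 genes outside the members most like each member. The number of arrays limits the precision. The methods' test is a two-sample Student's test on the same values. The fit was tested on simulated data. No probe sequences were used, so sharing of signal between related genes was not tested. The alternatives were other normalizations, filters, fits, weights and blocks, and leaving out each array. The array headers name hg19 or no build, and positions of upstream sequences are of GRCh38.p14.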

Additional observations from a re-analysis of the deposited data

Results flagged for a closer look

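In all, 13 differences between siZNF148 effects at 2 times passed the test of the difference itself (limma, contrast of contrasts), each with 3 arrays per group except 2 for siControl at 96 h. Between 24 h and 48 h in growth media, the siZNF148 effect grew by 6.82 for MYH3, 6.15 for MYH8, 7.73 for MYH7, 5.93 for MYH7B, 2.60 for MYH6 and 3.74 for MYH2 (log2, adjusted p 0.00233 to 0.0371). Without siControl replicate 1 at 48 h in growth media, in the fit of 28 arrays, these were 9.73, 8.49, 10.38, 8.48, 3.37 and 5.11 in the same order. Between 24 h and 96 h it grew by 6.77 for MYH3, 5.44 for MYH8, 9.24 for MYH7, 7.59 for MYH7B, 5.76 for MYH6, 3.76 for MYH2 and 2.98 for MYH1 (adjusted p 9.15e-05 to 0.0108). All 24 h arrays were on a slide of their own, and the slide and the time cannot be told apart. Each effect is a difference within a time but not always within a slide. At 96 h in growth media, only 1 siZNF148 array shared the slide of the 2 siControl arrays. In the fit of the arrays of the comparison alone, 0 of the 48 h differences passed. The MYH6 difference at 48 h also missed the threshold without any 1 of several arrays (adjusted p up to 0.116), and for genes under background at 24 h these values rest on dim signals.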

How the results depend on the processing

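Of 2912 values of single genes under 45 other settings, 2717 kept their side of the threshold, 68 lost the call, 119 gained it and 8 turned. Within these counts, 79 values that did not pass changed sign. The numbers of called members at 96 h in growth media (7) and at 48 h in differentiation media (7) were within 1.5 times of the given count in every setting run. Counts elsewhere moved as follows, and apart from the fits with fewer arrays the cause was not tested. The fit of the arrays of a comparison alone gave 1 call for the siZNF148 effect at 48 h in growth media, 5 for media with siControl at 96 h, 5 for time with siControl, 1 each for media with siZNF148 at 48 h and at 96 h, 2 each for time with siZNF148 in growth and in differentiation media, 5 for the difference of effect between media at 96 h and 0 for that between 48 h and 24 h. The fit of 28 arrays gave 6 and 5 for media with siControl at 48 h and 96 h, 5 for time with siControl, 1 for media with siZNF148 at 96 h, 1 each for time with siZNF148 in both media, and 3 and 4 for the difference of effect between media at 48 h and 96 h. Array weights gave 1 at 24 h (MYH4), 6 and 5 for media with siControl at 48 h and 96 h, 6 for time with siControl, 1 for media with siZNF148 at 48 h, 1 and 2 for time with siZNF148 in growth and differentiation media, and 3 and 3 for the difference between media. The methods' test before adjustment gave 2 for the effect at 48 h in growth media, 5 for media with siControl at 96 h, 5 for time with siControl, 1 and 1 for media with siZNF148 and 2 and 2 for time with siZNF148, and after adjustment 0, 5, 3, 0, 1, 2 and 2 in the same order. Percentile scaling, the mean of a gene's probes and values raised to the lowest detected value each gave 1 for media with siControl at 48 h, 1 for time with siZNF148 in growth media and 1 for the difference between media at 48 h, and raised values also 1 for time with siZNF148 in differentiation media. Trended and robust variances gave 1 for media with siControl at 48 h and 1 for time with siZNF148 in growth media. Normexp gave 1 each for time with siZNF148 in both media and 1 for the difference between media at 96 h. Asking for detection on 3 arrays gave 1 for time with siZNF148 in growth media. The slide as a block gave 1 for media with siControl at 96 h and 1 for time with siControl.

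Leaving out 1 array at a time gave 0 to 1 calls for siZNF148 at 24 h, 6 to 7 at 48 h and 7 to 7 at 96 h in growth media, and 7 to 7 at 48 h and 4 to 4 at 96 h in differentiation media, where MYH2 and MYH8 were lost each time. It gave 0 to 6 and 1 to 2 for media with siControl at 48 h and 96 h, 0 to 2 for time with siControl, 0 to 0 for media and for time with siZNF148, 0 to 3 and 0 to 0 for the difference between media, and 5 to 6 and 7 to 7 for that between times. Without siControl replicate 1 at 48 h in growth media, MYH3 (2.70) and MYH7B (1.82) for media with siControl at 48 h and MYH3 (-2.59) for the difference between media turned (without replicate 2 of that group they were -1.71, -2.02 and 1.81), as did MYH3 (1.97) with array weights and MYH1 (-0.01) for siZNF148 at 48 h in differentiation media with raised values. Same-numbered arrays did not deviate together (r from -0.16 to 0.12, over 0.1 in 1 of 14 pairs), so the numbers were not taken as pairs. Replicates are numbered as in the sample titles, and the descriptions number the siZNF148 arrays of 48 h in growth media otherwise. With the replicate block, calls for siZNF148 were 0, 7, 7, 7 and 6, and 3 for media with siControl at 96 h, where MYH3 passed (3.91, adjusted p 0.0476). Changes of MYH1, MYH4 and the siControl side of MYH6 lie at the background of the arrays and are bounds at best.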
